A study of Mus musculus with 10 samples.

Results

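The nuclear genes for the subunits of respiratory complexes II, III, IV and V, with cytochrome c, were examined in murine pancreatic tumors from normoglycemic and D30 mice. Members were the protein-coding genes whose symbols are Sdha to Sdhd, Cyc1 or Cycs, or begin with Uqcr, Cox4, Cox5, Cox6, Cox7, Cox8 or Atp5, with a mean of at least 1 normalized count over the 10 tumors. The symbols matched 58 genes, of which 50 were protein-coding and 8 were pseudogenes, and 46 of the 50 reached the mean. These 46 members, out of 24560 genes tested and 55359 listed, comprised 4 genes of complex II, 10 of complex III with cytochrome c, 15 of complex IV and 17 of complex V. The 4 that fell below the mean were Cox7b2, Cox8c and a second identifier named Atp5o, each at 0 in every tumor, and Cox8b, with a mean of 0.0914. The member nearest to this limit was Cox6a2, whose values are given with the isoforms. Atp5s, a factor B-like gene, entered by its symbol only and is not a subunit of the ATP synthase. Tumors had been grown in the pancreas of C57BL/6 mice (C57BL/6 J in the study's methods) from KPC K8484 cells, a mouse pancreatic cancer line that serves here as 1 line, implanted when the mice were 10 weeks of age. The 5 normoglycemic mice drank regular water, and the 5 D30 mice drank water with 30% dextrose for 14 days, a diet meant to raise blood glucose. Both groups share the strain, the cell line and the implantation. The titles of all 10 samples carry the word PDX, whereas the study's text describes its sequenced tumors as KPC orthotopic tumors. By the study's methods males and females were used in equal numbers and mice with tumors were randomized, and the labels used here give no sex for a tumor. Reads of Y-linked genes, given below, do not show equal numbers of males and females in these 10 tumors. The comparison asks which respiratory subunits differ at the RNA level between D30 and normoglycemic tumors. Tumors are called here by the letter and number of the table's columns, N for normoglycemic (N1, N2, N4, N5, N6) and T for D30 (T1, T2, T4, T5, T7).

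Complexes II, III and IV pass electrons from succinate and from ubiquinol to oxygen in the inner mitochondrial membrane, and complexes III and IV pump protons as they do so. Complex II, succinate dehydrogenase, is also an enzyme of the citric acid cycle, and cytochrome c is the soluble carrier between complexes III and IV. Complex V, the ATP synthase, lets the protons flow back and makes ATP. All subunits of complex II are nuclear genes, whereas complexes III, IV and V combine nuclear subunits with a few encoded by mitochondrial DNA, so their assembly draws on both genomes. Several subunits of complex IV exist as a common and a tissue-restricted isoform, such as those of heart and skeletal muscle.

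Nuclear respiratory genes are known for promoters that bind the nuclear respiratory factor NRF1 and factors of the ETS family such as GABPA. Promoter windows of RefSeq (GRCm38.p6), reaching from 250 bases before to 50 bases after a start site, were matched for 33 of the 46 members and searched on both strands for fixed letters. The NRF1 letters, GCGCA, any base and then GCGC, lay in the windows of 10 of 33 members (30.3%), against 5.19% of the 27025 genes with a window. The ETS letters CCGGAAGT lay in 4 of 33 (12.1%, against 4.31% of all genes), the YY1 letters AANATGGCG in 3 of 33 (9.09%, against 2.76%), and TCAAGGTCA, bound by the estrogen-related receptors, in 2 of 33 (6.06%, against 126 of the 27025 genes). The CCAAT letters lay in 19 of 33 (57.6%, against 41.1%) and the cyclic AMP response letters TGACGTCA in 2 of 33 (6.06%, against 2.03%). Both genes with the receptors' letters, Sdhd and Atp5g3, also held the NRF1 letters. A match is a description of these letters and not a binding site. The stretches below come from members that are among the 4 smallest p of their complex and hold the NRF1 or ETS letters. The letters, with 10 bases on each side, lie wholly before the start site. Complex II has only 4 members, so this rule takes in all of them, also Sdha (limma unadjusted p = 0.911). Atp5g3, which holds the receptors' letters, is added. The stretches show the matched letters in capitals and the coding strand, which is the minus strand in each.

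They lie on GRCm38.p6 at chr9:50603909-50603938 for Sdhd, chr13:74350319-74350348 and chr13:74350276-74350305 for Sdha, chr10:80406870-80406897 for Uqcr11, chr5:115349101-115349130 and chr5:115349056-115349085 for Cox6a1, chr15:102671070-102671099 for Atp5g2 and chr2:73911360-73911388 for Atp5g3.
Sdhd, NRF1 letters: tcgctggggtGCGCACGCGCggtggcagcg
Sdha, NRF1 letters farther from the start: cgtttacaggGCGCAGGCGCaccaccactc
Sdha, NRF1 letters nearer to the start: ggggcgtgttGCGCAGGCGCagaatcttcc
Uqcr11, ETS letters: tctctcctccCCGGAAGTagatgtcaat
Cox6a1, NRF1 letters farther from the start: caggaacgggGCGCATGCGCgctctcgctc
Cox6a1, NRF1 letters nearer to the start: cggataaagtGCGCAGGCGCtggagttcct
Atp5g2, NRF1 letters: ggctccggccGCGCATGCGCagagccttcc
Atp5g3, letters of the estrogen-related receptors on the opposite strand: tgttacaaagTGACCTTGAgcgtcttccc

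The matched letters begin 79 bases before the start of Sdhd, 98 and 55 before that of Sdha, 66 before that of Uqcr11, 162 and 117 before that of Cox6a1, 42 before that of Atp5g2 and 52 before that of Atp5g3. The median log2 fold change, D30 against normoglycemic, was 0.49 in the 10 members with the NRF1 letters and 0.44 in the 23 without them. It was 0.71 in the 4 members with the ETS letters (Uqcr11, Uqcrh, Cox8a and Atp5h) and 0.43 in the 29 without them. These medians were not tested.

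Recovered reads per tumor ranged from 29192261 to 42122304. Tumor T4 stood apart in that it alone held reads of Y-linked genes (a sum of 973 normalized counts over 4 genes, against 0 in the other 9 tumors), and in it short and AT-rich transcripts were high, as detailed below. Sex, if the Y-linked reads reflect it, cannot be told apart from the other traits of T4. Tumor T5 had the fewest genes with a read (20482, against 23446 to 25912 in the others) and the highest sum of 5 erythroid genes (187883, against at most 12386 elsewhere). The labelled tumor type was met by its epithelial markers: the summed normalized counts of 8 keratins and other epithelial genes ran from 224793 to 355325 in normoglycemic and 377665 to 500302 in D30 tumors, without overlap, and 0 of 8 passed the test. The sum of 6 endothelial markers ran from 10874 to 18119.8 in normoglycemic and 5399 to 9713 in D30 tumors, also without overlap, and 1 of 6, Cdh5, was lower (log2 fold change -1.45). Of 6 islet markers, 4 were lower in D30 tumors (Ins1, Gcg, Iapp and Ppy), with sums from 13.3 to 1415 in normoglycemic and 0 to 15 in D30 tumors, and of 6 macrophage markers Csf1r was lower, with sums from 22831 to 50047 in normoglycemic and 10536 to 60244 in D30 tumors. None of the markers of acinar cells (8 tested), fibroblasts (7), pericytes (7), smooth muscle (5), neutrophils (5), T cells (6), B cells (4), adipocytes (5), brown adipocytes (4), skeletal muscle (6 of 9 listed, with Myh1, Myh2 and Myh4 at 0), slow and cardiac muscle (3 of 6) or erythroid cells (5) passed limma's adjusted threshold. The part of these differences in the results below was not tested, and in bulk tumors fewer cells of a type and less RNA per cell cannot be told apart.

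Each of the 46 members had a higher mean log2 level in D30 than in normoglycemic tumors, by 0.02 to 0.99, with a median of 0.44, but none passed the threshold of an adjusted p under 0.05 in limma's moderated test on log2(normalized count + 1). Over all 24560 genes the threshold was passed by 678 (2.76%), 344 higher and 334 lower, the median log2 fold change was -0.06, and 45.3% had a fold change above 0. An unadjusted p under 0.05 was reached by 13 of 46 members, all higher in D30, against 7.79% of all genes for this direction and 17.3% for either. By complex, the median log2 fold change was 0.22 for complex II, 0.44 for complex III with cytochrome c, 0.56 for complex IV and 0.43 for complex V. Without T4 these medians were 0.22, 0.30, 0.29 and 0.19, and their order changed. edgeR's quasi-likelihood test on the recovered reads also called 0 of the 45 members it tested (4.13% of all genes). There 15 members, all higher, had an unadjusted p under 0.05, against 20.1% of all genes in either direction. DESeq2 called 3, Cox8a, Uqcr11 and Cox7a2l (8.17% of all genes). With it 17 members, all higher, had an unadjusted p under 0.05, against 18.7% of all genes in either direction. The members move together across tumors, so the 46 fold changes are not 46 separate observations. Scaling by the total reads lowered the median of the members to 0.22 and that of all genes to -0.27, and 38 of 46 members then had a fold change above 0 (31.7% of all genes) and 0 were called (3.53% of all genes).

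**Figure D1:**
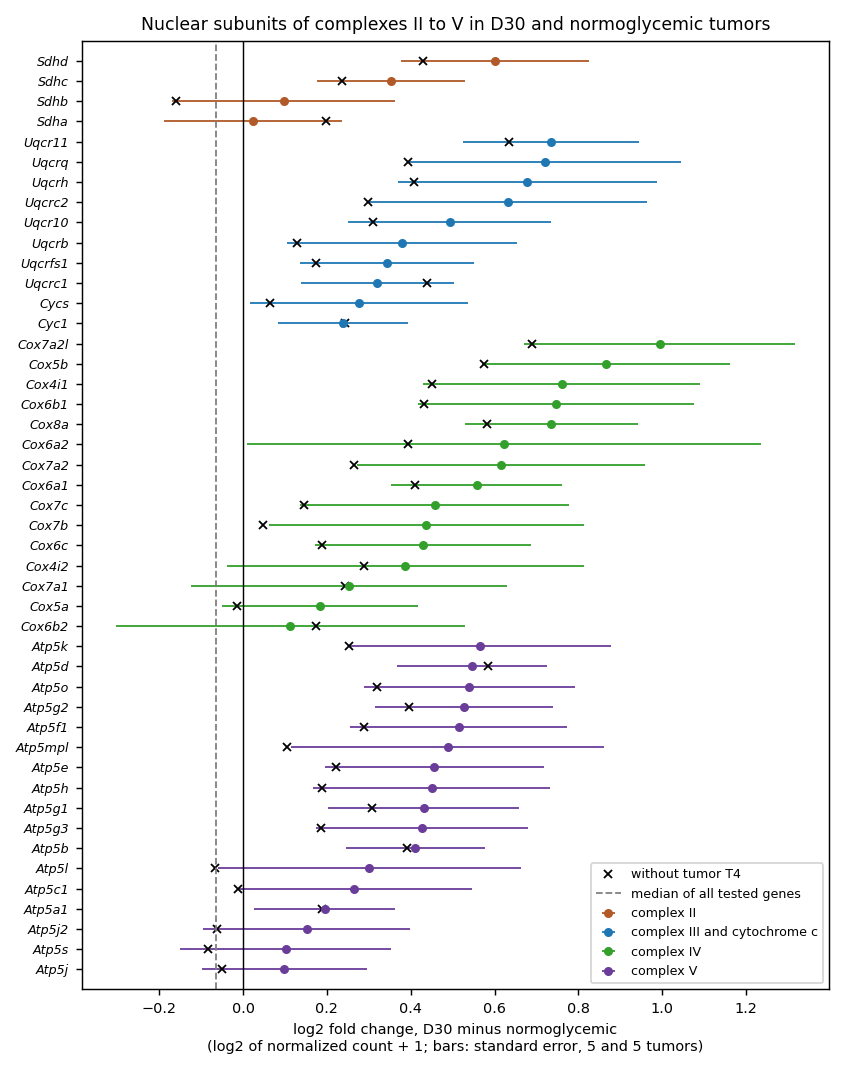
Log2 fold change of each member (x axis, D30 minus normoglycemic, in log2 of normalized count + 1) with its standard error as a bar, colored by complex, with a cross for the value without tumor T4 and a dashed line for the median of all tested genes. All 46 points lie to the right of 0, and 7 of the crosses lie to its left.

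The difference in the means was in part that of tumor T4, in which 38 of the 46 members had their highest value. Without T4 the median log2 fold change of the members was 0.25 rather than 0.44, 39 of 46 stayed above 0 (46.4% of all genes), and 1, Cox8a, passed the threshold (6.23% of all genes). In fits chosen after seeing the data, 5 members passed without T4 and N1, which were Atp5b, Atp5d, Cox5b, Cox7a2l and Cox8a (6.36% of all genes), and 2 passed without T4 after correction for GC content and length, Cox5b and Cox7a2l (7.55% of all genes). Members whose D30 tumors all exceeded all normoglycemic tumors numbered 4 of 46, Cox8a, Cox6a1, Atp5d and Atp5b, against 2.87% of all genes for this direction and 6.19% for either. Without T4, Uqcrc1 joined them, against 5.69% of all genes.

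In complex II, none of the 4 subunits passed the test, and their values in T4 went both ways. Sdhd, a membrane anchor of the complex (ENSMUSG00000000171.6, chromosome 9, 50596357 to 50603812, positions here and below from GENCODE M21, GRCm38), stood at 3369.6, 2323, 2733, 2306 and 3020.4 normalized counts in N1, N2, N4, N5 and N6, and at 2829, 4062, 6659, 3909 and 4007 in T1, T2, T4, T5 and T7. T4 was far above the rest, T2, T5 and T7 lay above N1, the highest normoglycemic tumor, and T1 lay among the normoglycemic tumors. The means were 2750.3 ± 457 (SD, n = 5) and 4293 ± 1416 (SD, n = 5), which is on the log2 scale a difference of 0.60 (SE 0.22, limma adjusted p = 0.186) and of 0.43 without T4 (adjusted p = 0.148). Sdhc, the other membrane anchor, ran from 3168 to 4225 in normoglycemic and 3966 to 6220.2 in D30 tumors, overlapping through N1 alone, and differed by 0.35 (SE 0.18, adjusted p = 0.33), or 0.23 without T4. Sdha, the flavoprotein that oxidizes succinate, went the other way in T4. Its D30 values were 5481, 7040.04, 3468, 5779.6 and 7099.7, so T4 was the lowest of all 10 tumors, and the normoglycemic values were 4439.5, 5712, 6109.5, 5552 and 5869.6. The log2 fold change of Sdha was 0.02 (SE 0.21) with T4 and 0.20 without it. Sdhb, the iron-sulfur subunit, stood at 2361, 2368, 5907, 2257 and 2689.7 in D30 tumors, where T4 was 2.5 times the median of the other D30 tumors and the other 4 fell within the normoglycemic range of 2209.6 to 3678. For Sdhb the log2 fold change was 0.10 with T4 and -0.16 without it (adjusted p = 0.591). Sdha and Sdhb form the catalytic head of the enzyme, and in T4 they stood on opposite sides of the remaining D30 tumors. In normalized counts per kilobase of transcript, which allow levels to be compared between genes, the normoglycemic means were 2400.4 for Sdhb, 2234 for Sdhd, 1909 for Sdha and 1115 for Sdhc.

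In complex III, the clearest difference was in Uqcr11, a small subunit of the complex (ENSMUSG00000020163.13, chromosome 10, 80402997 to 80406830). Its values were 2013, 2106, 1902, 1547 and 2381 in the normoglycemic and 2949, 3141, 4326, 2262 and 4185 in the D30 tumors. All D30 tumors but T5 exceeded all normoglycemic tumors, and T7 was close to T4, so T4 was not alone among the high values. Means of 1989.7 ± 305 (SD, n = 5) and 3373 ± 871 (SD, n = 5) were found for the groups, and limma gave a log2 fold change of 0.73 (SE 0.21, limma adjusted p = 0.0861). It was 0.63 without T4 (adjusted p = 0.0651) and 0.87 without T5, where it passed the threshold (adjusted p = 0.032, 3.32% of all genes). After a correction for GC content and length the Uqcr11 difference was 0.52 (adjusted p = 0.211).

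Uqcrq and Uqcrh are further small subunits, and Uqcrh, the hinge protein, contacts cytochrome c1. Uqcrq stood at 3168, 2309.6, 2545, 1762 and 2596 in normoglycemic and 2653, 2693, 9949, 4127 and 3535 in D30 tumors, and Uqcrh at 5707, 3327, 3805, 2647 and 3790.4 in normoglycemic and 3542, 5403, 12673, 5129 and 6127 in D30 tumors. T4 held 3.22 and 2.41 times the median of the other D30 tumors, and the remaining D30 values were interleaved with or just above the normoglycemic ones. The log2 fold change of Uqcrq was 0.72 (SE 0.33, adjusted p = 0.276) and 0.39 without T4, and that of Uqcrh was 0.68 (SE 0.31, adjusted p = 0.279) and 0.41. The core proteins split in T4 as Sdha and Sdhb did. Uqcrc2 stood at 10709 in T4 and at 3257 to 3430.01 in the other D30 tumors, against 2017 to 4343 in the normoglycemic ones, and its log2 fold change was 0.63 (adjusted p = 0.355) and 0.30 without T4. Uqcrc1 stood at 5762 in T4, below every normoglycemic tumor (5779 to 7862), while T1, T2, T5 and T7 (8321, 8854, 8106 and 9585) were above all of them. Its log2 fold change was 0.32 and 0.44 without T4 (adjusted p = 0.079). Cycs, cytochrome c itself, stood at 3523, 2195, 2679.7, 2143 and 2882 in normoglycemic and 3386, 3009, 5752, 1986 and 2862 in D30 tumors. T5 was the lowest and T4 the highest of all tumors, and the log2 fold change was 0.28 (SE 0.26, adjusted p = 0.637), 0.06 without T4 and 0.45 without T5. Cyc1, which carries the heme of cytochrome c1, was higher by 0.24 with T4 and 0.24 without it, and its T4 value of 4223 lay among the other D30 tumors. Uqcrfs1, the Rieske iron-sulfur protein, and the small subunits Uqcr10 and Uqcrb differed by 0.34, 0.49 and 0.38, and without T4 by 0.17, 0.31 and 0.13. Levels per kilobase were highest for Uqcrh (7048 in normoglycemic tumors) and Uqcrq (6114) and lowest for Uqcrc2 (1493) and Cycs (859.6).

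Uqcrc2 and Uqcrb overlap the genes Pdzd9 and Gm10767 on the opposite strand, each with a mean under 60 normalized counts. In complexes IV and V, opposite-strand partners of higher level were Vps13b for Cox6c (mean 1965) and Haus1 for Atp5a1 (810). Others were Wdr77 for Atp5f1 (1751) and Gabpa for Atp5j (2402). Whether reads were counted by strand is not given in the sources used here, and neither is how reads shared with the processed pseudogenes of small subunits were treated.

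Complex IV held the member with the smallest p, Cox8a, a small subunit of the enzyme (ENSMUSG00000035885.6, chromosome 19, 7215153 to 7217616). Cox8a stood at 6906, 6509, 8025, 5590.5 and 7029.9 in the normoglycemic and 8588, 10106, 17268, 10095 and 11984 in the D30 tumors. Every D30 tumor was above every normoglycemic tumor, with T1 closest to them and T4 farthest. The means were 6812 ± 882 (SD, n = 5) and 11608 ± 3385 (SD, n = 5), so that the groups differed on the log2 scale by 0.74 (SE 0.21, limma adjusted p = 0.0797). Without T4 it was 0.58 (SE 0.15, adjusted p = 0.038), so the difference was smaller and the p crossed the threshold, and after the correction for GC content and length it was 0.52 (adjusted p = 0.201).

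Cox7a2l, a Cox7a-like protein that joins complexes III and IV in supercomplexes (ENSMUSG00000024248.15, chromosome 17, 83501918 to 83517330), had the largest fold change of all members. It stood at 7486, 4585, 5451, 3948 and 4928 in normoglycemic and 5797, 8104, 23889.8, 10690.4 and 9538 in D30 tumors. T4 was 2.72 times the median of the other D30 tumors, T2, T5 and T7 were above the normoglycemic range, and T1 fell within it. The log2 fold change of Cox7a2l was 0.99 (SE 0.32, adjusted p = 0.13), 0.69 without T4 (adjusted p = 0.079) and 0.91 after the GC and length correction, where it passed (adjusted p = 0.0483, 4.2% of all genes). Cox5b, a zinc-binding subunit on the matrix side (ENSMUSG00000061518.12, chromosome 1, 36691449 to 36693681), stood at 5355, 3518, 3412, 2923 and 4306 in normoglycemic and 5494, 4954, 15593, 6006 and 6371 in D30 tumors. N1 alone overlapped the D30 tumors, lying above T2, and T4 was the highest. For Cox5b the log2 fold change was 0.87 (SE 0.30, adjusted p = 0.152), 0.57 without T4 (adjusted p = 0.0792) and 0.77 after the correction (adjusted p = 0.0499). Cox6a1, the common form of subunit 6a (ENSMUSG00000041697.9, chromosome 5, 115345642 to 115348981), stood at 9809, 7898, 9639, 7092 and 8953 in normoglycemic and 9819, 11040.00, 19054, 11926 and 13287 in D30 tumors. The groups did not overlap, although N1, the highest normoglycemic tumor, and T1, the lowest D30 tumor, were nearly equal. For Cox6a1 the log2 fold change was 0.56 (SE 0.20, adjusted p = 0.178) and 0.41 without T4 (adjusted p = 0.127). After the GC and length correction it was 0.34 (adjusted p = 0.42).

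Cox4i1, the common form of subunit 4, was the most abundant member of the complex per kilobase (16727 in normoglycemic and 31202 in D30 tumors). It stood at 17474, 9944, 13639.8, 9099.7 and 12149.9 in normoglycemic and 11849, 16156, 48450.4, 18861 and 20912 in D30 tumors, in normalized counts, with T1 inside the normoglycemic range, T2 below N1 and T4 at 2.78 times the median of the other D30 tumors. For Cox4i1 the log2 fold change was 0.76 (SE 0.33, adjusted p = 0.257) and 0.45 without T4. Cox4i1 overlaps Emc8 on the opposite strand, which had a mean of 1198 normalized counts. Cox6b1, which faces the intermembrane space, and Cox7a2, the common form of subunit 7a, showed a similar spread. Cox6b1 ran from 2951 to 6485 in normoglycemic and 4808 to 17026 in D30 tumors and differed by 0.75 (adjusted p = 0.263), and Cox7a2 ran from 1469.6 to 3153 in normoglycemic and 2079 to 8373 in D30 tumors and differed by 0.62 (adjusted p = 0.389). Without T4 these differences were 0.43 and 0.27. The remaining common subunits, Cox5a, Cox6c, Cox7b and Cox7c, differed by 0.18, 0.43, 0.44 and 0.46, and without T4 by -0.02, 0.19, 0.05 and 0.15. Cox7b, X-linked, had the highest T4 value relative to the other D30 tumors, and was singled out after its values were seen. It stood at 14783, or 3.82 times the median of the other D30 tumors.

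In complex V, the beta and delta subunits of the head and central stalk were the 2 whose groups did not overlap. Atp5b, the catalytic beta subunit (ENSMUSG00000025393.13, chromosome 10, 128083273 to 128090391), stood at 25798, 21064, 24364, 19534 and 21869 in normoglycemic and 31270.1, 28900.1, 31515, 27870.2 and 29612 in D30 tumors. The D30 tumors were tightly grouped above all normoglycemic ones, and T4 was 1.08 times the median of the other D30 tumors, so it did not stand out here. The means were 22526 ± 2529.8 (SD, n = 5) and 29834 ± 1555 (SD, n = 5), so that the groups differed on the log2 scale by 0.41 (SE 0.17, limma adjusted p = 0.222), 0.39 without T4 (adjusted p = 0.12) and 0.38 after the GC and length correction (adjusted p = 0.14). Atp5d, the delta subunit of the central stalk (ENSMUSG00000003072.16, chromosome 10, 80138632 to 80145818), stood at 5798, 5221, 6687, 4378 and 5166 in normoglycemic and 6907, 7558, 7078, 8058 and 10197 in D30 tumors. Again the groups did not overlap, T4 was among the lower D30 tumors and T7 was the highest. For Atp5d the log2 fold change was 0.55 (SE 0.18, adjusted p = 0.133) and 0.58 without T4 (adjusted p = 0.0527). After the GC and length correction the Atp5d difference was smaller, at 0.35 (adjusted p = 0.21). Atp5d overlaps Cbarp on the opposite strand, which had a mean of 1288 normalized counts. Atp5a1, the alpha subunit, ran from 20795 to 25953 in normoglycemic and 22391 to 29439 in D30 tumors and differed by 0.19 (adjusted p = 0.602), while Atp5c1, the gamma subunit, differed by 0.27 with T4 and -0.01 without it. Atp5e, the epsilon subunit and the most abundant member of the complex per kilobase (11924 in normoglycemic tumors, followed by Atp5b at 11757), ran from 4111 to 6076 in normoglycemic and 4713 to 13050.03 in D30 tumors and differed by 0.46 (adjusted p = 0.4).

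The c-ring, through which protons pass, is built from an identical protein made by 3 genes. Atp5g1 stood at 3369, 2558, 3495, 2148 and 3148 in normoglycemic and 4138, 3506, 5502, 2517 and 4508 in D30 tumors, which differ on the log2 scale by 0.43 (SE 0.23, adjusted p = 0.36). Atp5g2 stood at 4959, 3526, 4449, 2967 and 3832 in normoglycemic and 4661, 4328, 8051, 5482 and 6168 in D30 tumors, which differ on the log2 scale by 0.53 (SE 0.21, adjusted p = 0.22). Atp5g3 stood at 6476, 5046, 4631, 4184 and 5165 in normoglycemic and 5472, 5624, 13278, 5350.4 and 6583 in D30 tumors, which differ on the log2 scale by 0.43 (SE 0.25, adjusted p = 0.416). In all 3 genes T4 was the highest tumor and the remaining D30 values overlapped the normoglycemic ones. Without T4 the differences were 0.31, 0.40 and 0.19. Atp5o, which joins the peripheral stalk to the head, stood at 3049, 2335, 2258, 1911 and 2417 in normoglycemic and 2502, 3085, 6366, 2582 and 3807 in D30 tumors. N1 overlapped the lower D30 tumors, and the log2 fold change was 0.54 (SE 0.25, adjusted p = 0.293). The other stalk subunits Atp5f1, Atp5h and Atp5j differed by 0.52, 0.45 and 0.10, and the small membrane subunits Atp5j2, Atp5k, Atp5l and Atp5mpl by 0.15, 0.57, 0.30 and 0.49. Without T4 the difference was 0.29 for Atp5f1, 0.19 for Atp5h, 0.25 for Atp5k, 0.10 for Atp5mpl, 0.32 for Atp5o and 0.22 for Atp5e. Without T4, 7 members had a fold change below 0, which were Sdhb, Cox5a (-0.02) and, in this complex, Atp5j, Atp5j2, Atp5l, Atp5c1 and the factor B-like Atp5s (-0.05, -0.06, -0.07, -0.01 and -0.08). Atp5s was the least abundant member of this list per kilobase (184), followed by Atp5o (2857).

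Genes of the ATP synthase also carry other symbols in this annotation. Atpif1, the inhibitor of the synthase's reverse reaction, stood at 5888, 3047, 3451, 2876 and 3405 in normoglycemic and 3209.98, 4321, 11373, 3251 and 4655 in D30 tumors, which differ on the log2 scale by 0.40 (adjusted p = 0.584) and by 0.08 without T4. Usmg5, a small membrane subunit, ran from 3111 to 5845 in normoglycemic and 3662 to 20406 in D30 tumors and differed by 0.59 (adjusted p = 0.501) with T4 and by 0.13 without it. T4 was 3.03 and 4.97 times the median of the other D30 tumors, which all lay below N1. They are not counted among the 46.

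Across the 10 tumors the members varied together. The median of their log2 deviations from each gene's own mean was 0.11, -0.37, -0.16, -0.54 and -0.22 in N1, N2, N4, N5 and N6, and -0.19, 0.03, 1.04, -0.05 and 0.21 in T1, T2, T4, T5 and T7. T4 was the highest by a wide margin and N5 the lowest, and N1 lay above T1, T2 and T5, so the groups overlapped. T4 held the highest value of 38 of 46 members (24.3% of all tested genes), and N5 the lowest of 31 of 46. With T4 set aside, the highest value lay in T7 for 21 members and in N1 for 16. The members together took 1.13% of all normalized counts in T4, 0.548% in N5, 0.823% in N1 and 0.845% in T7, with the other 6 tumors between 0.624% and 0.760%. T4 also had the highest sum of 6 macrophage markers (60244, against at most 50047 in the other tumors) and the lowest of 7 fibroblast markers (26573, against at least 51871), and their part in the members' values was not tested. Each complex followed the same order in T4 and N5, with deviations in T4 of 0.82 for complex II, 0.98 for complex III, 1.23 for complex IV and 1.16 for complex V.

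**Figure D2:**
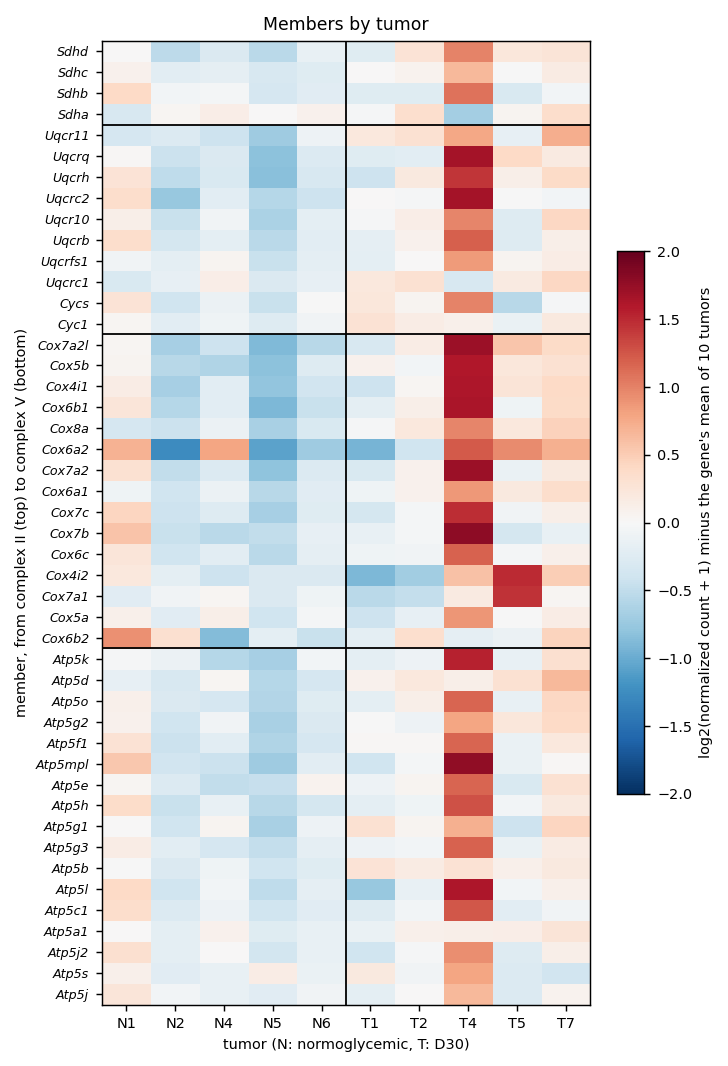
Heat map of the log2(normalized count + 1) of each member (rows, complex II at the top to complex V at the bottom) minus its mean over the 10 tumors (columns, normoglycemic on the left and D30 on the right). The T4 column is red for nearly all members, with Sdha, Uqcrc1 and Cox6b2 as blue cells, and the N5 column is blue for most members.

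The members are short genes, with a median transcript length of 720.5 bases against 2448 for the 17307 tested genes with a mean of at least 10, and their median GC content was 50.8% against 50.3%. In T4, transcripts of all kinds deviated by length and GC content. Set against the median of the other D30 tumors, the log2 level in T4 had a median over all these genes of 0.64 for transcripts up to 700 bases, 0.58 for 700 to 1500, 0.02 for 1500 to 3000 and -0.44 beyond 3000. For the members the same medians were 1.21 (22 genes), 1.17 (15 genes) and -0.00011 (7 genes), with the lone pair beyond 3000, Cycs and Sdhc, at 0.79, which leaves the short members above other short genes. By GC content the medians over all genes in T4 went from 0.68 (up to 45%) to -0.76 (above 55%), and those of the members from 1.46 to 0.67. Across the 46 members Spearman's rho of the T4 deviation was -0.27 with length and -0.42 with GC content, close to the values over all genes (-0.30 and -0.38). These are descriptions across genes of shared libraries. N1 deviated from the other normoglycemic tumors in the same way, with medians over all genes of 0.39 up to 45% GC and -0.40 above 55%. Leaving out T4 did not remove the trend with GC content from the comparison of the groups. Without T4 the median log2 fold change over all these genes went from -0.21 (up to 45%) to 0.15 (above 55%). That of the members went from 0.08 to 0.39. Of the 46 members, 24 (52.2%) were more than 2-fold higher in T4 than the median of the other D30 tumors, against 21.3% of all these genes, and 6 were below it. The members lowest in T4 were Sdha (-0.88) and Uqcrc1 (-0.57), and the highest were Cox7b (1.93) and Atp5mpl (1.86).

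**Figure D3:**
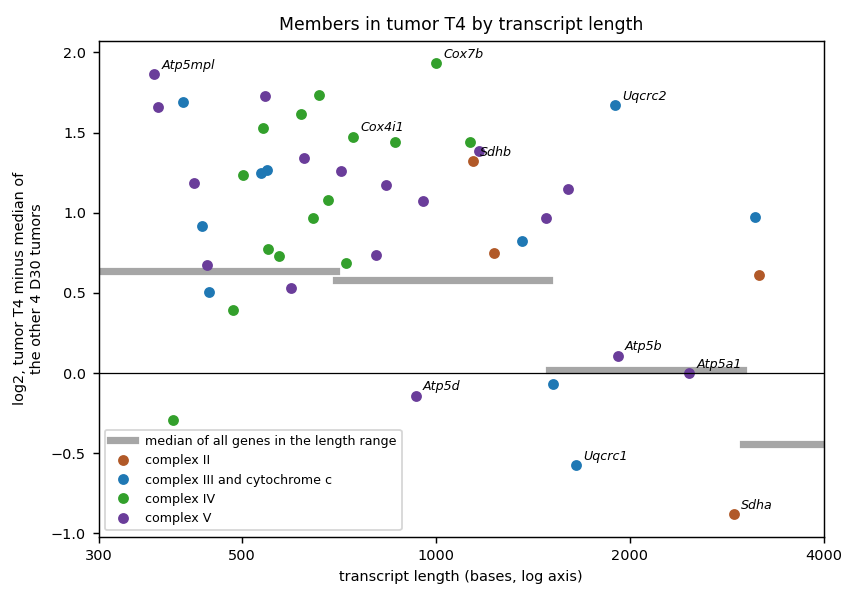
Log2 level of each member in tumor T4 minus the median of the other 4 D30 tumors (y axis) against its transcript length in bases (x axis, log scale), colored by complex, with grey bars for the median of all genes in each length range. Most members up to 1500 bases lie above the grey bars, while Sdha and Uqcrc1 lie below 0.

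A correction of each tumor for GC content and length lowered the T4 median of the members from 1.04 to 0.84 and left it the highest of the 10 tumors. N5 moved from -0.54 to -0.42 and N1 from 0.11 to 0.16. After it, 43 of 46 members had a fold change above 0 (46.3% of all genes), with a median of 0.33, and the 3 below were Sdhb (-0.06), Atp5j (-0.09) and Cox6b2 (-0.10). The medians by complex were then 0.25 for complex II, 0.37 for complex III, 0.42 for complex IV and 0.30 for complex V, and Cox7a2l and Cox5b passed the threshold. Whether the T4 values of the members reflect its library or its tissue was not tested beyond this correction.

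**Figure D4:**
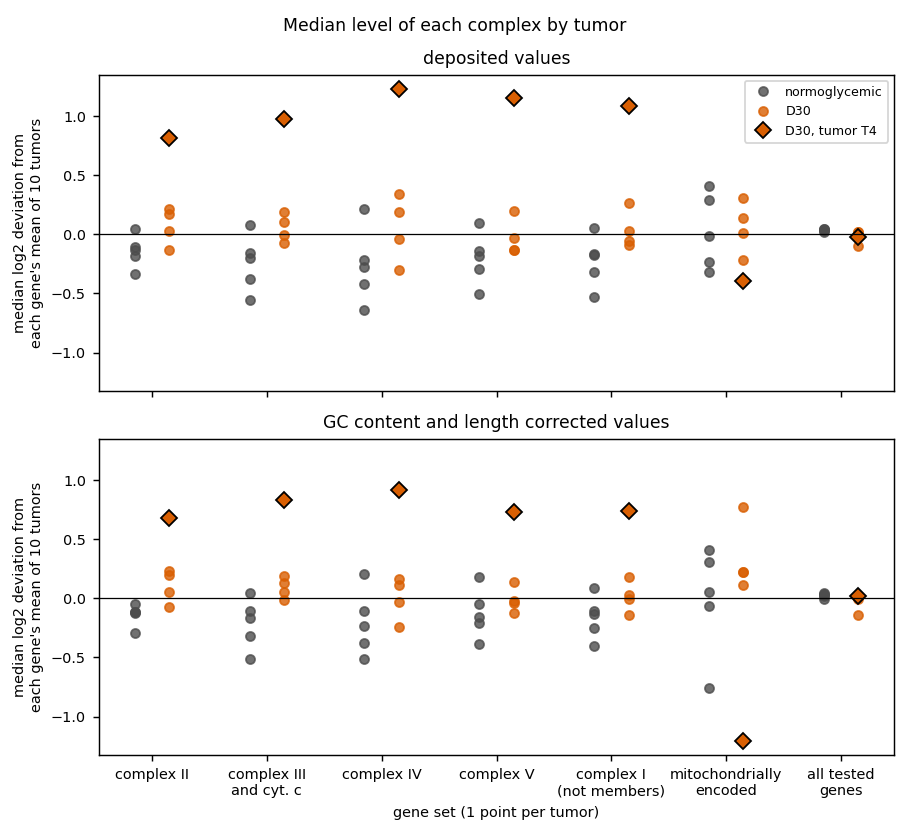
Median log2 deviation from each gene's own mean of 10 tumors (y axis) for each complex and for comparison sets (x axis), 1 point per tumor, in the deposited values (top) and after correction for GC content and length (bottom). T4, the diamond, is the highest tumor for complexes I to V in both panels and the lowest for the mitochondrially encoded genes.

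Among the paired isoforms of complex IV, the common form prevailed in all 10 tumors. No ratio, those of the c-ring genes included, passed a test between the groups. Cox4i2, the form of subunit 4 linked to low oxygen, stood at 108, 81, 69.4, 76.1 and 76.2 in normoglycemic and 49.4, 57.3, 139.9, 262 and 131 in D30 tumors. T5 was the highest and T1 and T2 the lowest of all tumors, so the D30 values enclosed the normoglycemic ones. The log2 ratio of Cox4i2 to Cox4i1 was -7.32, -6.92, -7.60, -6.88 and -7.30, and -7.88, -8.12, -8.43, -6.16 and -7.31, a mean difference of -0.37 (two-sided exact permutation p = 0.397, Benjamini-Hochberg adjusted over 6 ratios 0.81). Cox7a1, the heart and skeletal muscle form of subunit 7a, stood at 63.1, 70.1, 75.8, 60.2 and 69.3 in normoglycemic and 50.4, 52.7, 83.3, 203 and 75.6 in D30 tumors. T5 was again far above the rest, and without T5 the log2 fold change of Cox7a1 turned from 0.25 to -0.08 and that of Cox4i2 from 0.39 to 0.06. T5 also had the highest sum over 6 slow and cardiac muscle genes (7684 normalized counts, against 1049 to 3223 in the other tumors) and the lowest over 7 pericyte genes (2453, against 3356 to 6136). Their part in these values was not tested.

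Cox6a2, the muscle form of subunit 6a, was near the limit of detection, at 8.42, 1.45, 9.14, 1.77 and 2.57 in normoglycemic and 2.06, 3.44, 12.7, 10.3 and 8.52 in D30 tumors, and its fold change of 0.62 (SE 0.61) was well within the spread, as was that of 0.39 without T4. It overlaps Itgad on the opposite strand, which had a mean of 14.9 normalized counts, above that of Cox6a2 itself. Cox6b2, a form known from testis, stood at 43.1, 28.2, 11.9, 19.5 and 16.3 in normoglycemic and 19.5, 28.6, 19.7, 20.6 and 30.9 in D30 tumors. Unlike Cox6b1, it was not raised in T4, and the log2 ratio of Cox6b2 to Cox6b1 was -9.69 in T4 against -7.91 to -7.65 in the other D30 tumors. That ratio differed by -0.63 between groups (exact permutation p = 0.254, adjusted 0.81), the smallest p of the 6 ratios, where the design could reach 0.00794. The adjusted p of the 6 ratios ran from 0.81 to 0.984. In the c-ring genes, the log2 ratios of Atp5g1 and Atp5g2 to Atp5g3 differed by 0.00 and 0.10 between groups.

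**Figure D5:**
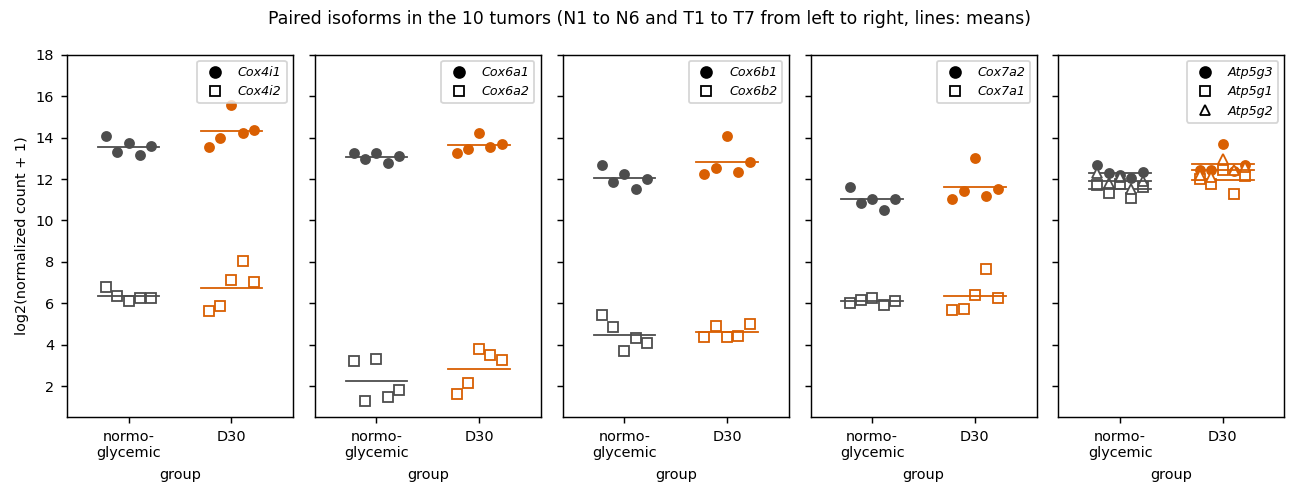
Log2(normalized count + 1) of paired isoforms (y axis) in the 5 normoglycemic and 5 D30 tumors (x axis), with filled points for the common form or Atp5g3, open points for the others and a line for each mean. The restricted forms Cox4i2, Cox6a2, Cox6b2 and Cox7a1 lie far below their partners in every tumor, and the 3 c-ring genes lie close together.

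The partners of the members were counted for comparison. Complex I, the entry point for NADH, is built largely from nuclear subunits. Of these, 36 of 36 had a fold change above 0 (45.3% of all genes), with a median of 0.41. An unadjusted p under 0.05 was reached by 11 (17.3% of all genes, either direction), and 1 passed the threshold (2.76% of all genes). Without T4, 32 of 36 were above 0 (46.4% of all genes), with a median of 0.21. With scaling by total reads 27 of 36 were above 0 (31.7% of all genes), with a median of 0.19. Under that scaling 3 had an unadjusted p under 0.05 (20.6% of all genes, either direction). The gene that passed was Ndufa6, at 2846, 2573, 3000.4, 2357 and 2582 in normoglycemic and 3352, 4209.6, 5512, 4714 and 4379 in D30 tumors, which differ on the log2 scale by 0.72 (SE 0.17, limma adjusted p = 0.0448) with no overlap between groups. The adjusted p of Ndufa6 was 0.0595 without a filter on low values, 0.106 with scaling by total reads and 0.0218 to 0.141 when 1 tumor was left out, and it stayed under the threshold in 2 of 10 such fits. The 6 subunits of complexes III, IV and V encoded by mitochondrial DNA lay on both sides of 0. Their median log2 fold change was 0.02, 3 were above and 3 below 0, and none reached an unadjusted p under 0.05. With scaling by total reads 5 of 6 were below 0, with a median of -0.20 and 1 at an unadjusted p under 0.05, and with 1 tumor left out the median ran from -0.13 to 0.08. mt-Cytb, cytochrome b of complex III, stood at 96443, 106043, 81538, 150936 and 134744 in normoglycemic and 95710.4, 104186, 54467, 73088 and 84957 in D30 tumors, and T4 was the lowest and N5 the highest tumor, the reverse of the nuclear subunits. For mt-Cytb the log2 fold change was -0.47 (SE 0.26, adjusted p = 0.378). mt-Co2, a catalytic subunit of complex IV, ran from 507 to 875 in normoglycemic and 638 to 1103 in D30 tumors and differed by 0.26 (adjusted p = 0.586). It stood far below mt-Cytb in every tumor, and whether its reads were counted in full is not given in the sources used here. Over the 6 genes the median deviation was -0.39 in T4 and 0.41 in N5, whereas the nuclear members stood at 1.04 and -0.54.

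None of the 38 assembly factors tested passed. The median log2 fold change was 0.19 for 4 factors of complex II, 0.07 for 7 of complex III, 0.30 for 21 of complex IV and 0.22 for 6 of complex V, and without T4 it was -0.13, -0.17, 0.08 and 0.09. Those with the smallest p were Sdhaf1 (0.73, adjusted p = 0.319) and Sdhaf3 (-0.29, 0.712) for complex II, Uqcc3 (0.62, 0.272) and Uqcc1 (-0.44, 0.389) for complex III, Cox14 (0.77, 0.222) and the copper chaperone Sco1 (0.49, 0.244) for complex IV, and Atpaf1 (0.51, 0.313) and Fmc1 (0.57, 0.371) for complex V. Sco2 and Pet117 were at 0 in all tumors. Proteins found with complex IV under symbols outside the rule had a median of 0.89 over 5 tested genes, which was 0.45 without T5, and none passed limma's threshold. AA467197, a paralog of the complex IV subunit Ndufa4, stood at 163, 133, 169, 86.8 and 90.7 in normoglycemic and 143, 391, 2133, 948 and 495 in D30 tumors. T1 lay among the normoglycemic tumors and the other 4 D30 tumors were above them all. Its log2 fold change was 2.18 (SE 0.56, limma adjusted p = 0.0593), and it passed in edgeR (adjusted p = 0.0281), DESeq2 (adjusted p = 5.61e-05) and limma without T4 (adjusted p = 0.0431). When 1 tumor was left out, AA467197 passed limma's threshold in 2 of 10 fits (adjusted p 0.0139 to 0.147). Ndufa4 itself differed by 0.09 (adjusted p = 0.922). Higd1a, a hypoxia-induced protein that binds complex IV, stood at 1321, 1274, 1721, 859 and 1325 in normoglycemic and 1709, 1929, 7407, 11072 and 2808 in D30 tumors, with T4 and T5 far above the others, and differed by 1.57 (limma adjusted p = 0.0951). Higd1a also passed in edgeR (adjusted p = 0.0475) and DESeq2 (adjusted p = 0.00172). In limma it passed in 0 of 10 fits with 1 tumor left out (adjusted p 0.0539 to 0.218).

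Of 16 regulators of mitochondrial genes, 2 passed the threshold (2.76% of all genes), in opposite directions. Esrra, the estrogen-related receptor alpha, stood at 2151, 2181, 2099.6, 2192 and 2552 in normoglycemic and 3527, 4466, 7069, 2786 and 4289.7 in D30 tumors. All D30 tumors were above all normoglycemic tumors, and the log2 fold change was 0.92 (SE 0.23, limma adjusted p = 0.0491), or 0.73 without T4 (adjusted p = 0.0183). Ppargc1a, the coactivator PGC-1 alpha that works with it, stood at 213, 335, 159.9, 366 and 196 in normoglycemic and 94.6, 116, 46.3, 145 and 47.9 in D30 tumors. All D30 tumors were below all normoglycemic tumors, and the log2 fold change was -1.56 (SE 0.38, adjusted p = 0.0478). Both calls lay just inside the threshold. Without a filter on low values the adjusted p was 0.062 for Esrra and 0.0571 for Ppargc1a, and with 1 tumor left out each passed in 2 of 10 fits, with adjusted p from 0.0183 to 0.137 and from 0.0302 to 0.152. After the GC and length correction Esrra had an adjusted p of 0.173 and Ppargc1a of 0.0443. With scaling by total reads Esrra had 0.097 and Ppargc1a 0.0323. The median over the 16 regulators was -0.12, and 0.02 without T4. Of 10 carriers of the inner and outer membrane, which bring pyruvate, phosphate and adenine nucleotides or leak protons, 1 passed (2.76% of all genes), Ucp2, an uncoupling protein. Ucp2 stood at 7022, 5427, 8622, 5938 and 8320.1 in normoglycemic and 18329, 26894, 8596, 13127 and 20191 in D30 tumors, which differ on the log2 scale by 1.22 (SE 0.28, adjusted p = 0.0359). T4 was the only D30 tumor within the normoglycemic range of Ucp2, and the log2 fold change was 1.45 without it (adjusted p = 0.00248). With 1 tumor left out it passed in 1 of 10 fits (adjusted p 0.00248 to 0.12), and with scaling by total reads its adjusted p was 0.111. The median over the 10 carriers was 0.31, and 0.13 without T4.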

How the data were processed

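Strand-specific RNA-seq was measured in 10 orthotopic tumors, 5 per group. The signal values deposited by the authors are read counts per gene divided by 1 size factor per tumor (DESeq2 normalized counts), after trimming and alignment with STAR 2.7.0e, per the labels to GRCm39, whereas the methods text names a human build. The study also lists RSEM among its RNA-seq tools, without saying at which step it was used. The annotation, the counting strand setting and the treatment of multi-mapped reads are not given in the sources used here. Columns were mapped to groups by their letter, and dividing each value by its tumor's smallest step recovered the reads (100.0% of values were whole within 0.01 of a read).

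Genes whose mean reached 1 normalized count were tested with limma 3.58.1 (R 4.3.3, moderated test with trend) on log2(normalized count + 1), D30 minus normoglycemic, with Benjamini-Hochberg adjustment over 24560 genes and a threshold of 0.05. Fold changes on this scale understate those of low genes. Recovered reads were tested with edgeR 4.0.16 (quasi-likelihood) and DESeq2 1.42.0 as alternatives. Other alternatives were scaling by total reads, TMM or upper quartile, a pseudocount of 5, no filter, a mean of at least 10, a loess correction for GC content and length, and leaving out each tumor. Isoform ratios were compared with two-sided exact permutation tests. Scripts were tested on simulated data. Each column is taken as a separate tumor, and p-values measure the spread between these tumors.

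Members and gene lists were chosen with earlier results of these data known. Members were named if called, among the 3 smallest p or the 2 highest or lowest levels per kilobase of a complex, or in an isoform group, and partners if called or, where none was called, among the 2 smallest p. Other members are named for their role or were chosen after their values were seen. Transcript lengths and positions came from GENCODE M21 (GRCm38), in which 52083 of 55359 identifiers were found.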

Additional observations from a re-analysis of the deposited data

Results flagged for a closer look

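In groups of 5 tumors, a tumor was listed here when its gap to the nearest other tumor was large against the range of its group. Gap and range were both taken on the log2 scale (Dixon's test at the 95% level), although normalized counts are printed for the genes. Chance alone gives such a gap in about 1 of 20 groups. Of 68 groups, 8 met it, and 7 of the 8 were tumor T4 among the D30 tumors. All groups come from the same 10 tumors and the members vary together, so the 68 are not separate observations. T4 was the highest for Atp5g3 (13278 normalized counts, against 5350.4 to 6583 in the other D30 tumors), Cox5b (15593, against 4954 to 6371), Cox7a2 (8373, against 2079 to 2928), Sdhb (5907, against 2257 to 2689.7), Sdhc (6220.2, against 3966 to 4456) and Uqcrc2 (10709, against 3257 to 3430.01). T4 was the lowest for the log2 ratio of Cox6b2 to Cox6b1 (-9.69, against -7.91 to -7.65). Among normoglycemic tumors, N4 was the highest for the log2 ratio of Atp5g2 to Atp5g3 (-0.058, against -0.52 to -0.38). The cause of these values was not tested.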

How the results depend on the processing

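Of 1275 values recomputed for 75 results, 1139 kept their direction and their side of the threshold or, for counts, stayed near the main count. No member was called in the main fit, so for members keeping their side of the threshold meant staying uncalled. The count of genes called was 678, and 1833 with DESeq2, 1020 after correction for GC content and length, 270 to 1530 with 1 tumor left out (270 without N2, 1530 without T4), and, in fits chosen after seeing the data, 1563 without T4 and N1 and 1835 without T4 after the correction. The count of members called was 0, and 3, 2, 0 to 1, 5 and 2 in the same order. Named members with a changed sign lay near 0. Scaling by total reads gave -0.12 for Atp5s, -0.10 for Cox6b2, -0.20 for Sdha and -0.13 for Sdhb, and the correction gave -0.10 for Cox6b2 and -0.056 for Sdhb. With 1 tumor left out, the log2 fold change ran from -0.083 to 0.21 for Atp5s, -0.090 to 0.35 for Cox6b2, -0.076 to 0.42 for Cox7a1, -0.062 to 0.20 for Sdha and -0.16 to 0.21 for Sdhb, and the ratio difference from -0.10 to 0.12 for Atp5g1 to Atp5g3 and -0.14 to 0.30 for Cox6a2 to Cox6a1, which was -0.20 with a pseudocount of 5. The cause was not tested. No paired analysis was possible because the columns carry no replicate number of the labels.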
